A study of Mus musculus with 12 samples.

Results

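The collagen gene family was taken as every protein-coding gene whose mouse symbol reads Col, a number, the letter a and a number. The rule found 44 genes in the annotation, and all 44 were in the count table of 54532 gene identifiers. The study sequenced poly(A) RNA from whole mouse lung in 4 groups of 3 libraries. CKO_CRE and CKO_PBS were Cc10-Cre;Rhoafl/fl mice (labelled RhoACKO), in which both alleles of Rhoa, a small GTPase gene, are floxed. WT_CRE and WT_PBS were Cc10-Cre mice (labelled RhoAWT). CKO_CRE and WT_CRE had received a treatment labelled CRE, which the labels do not spell out, and CKO_PBS and WT_PBS had received PBS. Mice of all 4 groups therefore carried the Cre transgene, driven by the promoter of Cc10 (Scgb1a1), a secretory protein of airway club cells, so that recombination is directed to those cells and not to the fibroblasts that make most collagen. Ages are not given, and the labels do not say whether replicates are separate mice. The p-values therefore set differences against the spread between these libraries.

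Collagens are proteins of 3 chains wound into a triple helix, and each gene encodes 1 chain. Fibril-forming collagens, chiefly types I and III, give lung its tensile strength and are made by fibroblasts. Type IV collagen forms the sheet-like network of basement membranes, and in the alveolus a network of the chains of Col4a3, Col4a4 and Col4a5 lies between epithelium and capillary. Other members form beaded filaments (type VI), bind to the surface of fibrils (fibril-associated collagens with interrupted helices, or FACITs), or span the cell membrane.

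Library totals ran from 16250674 to 21559210 counts. Levels are given as CPM, counts relative to the library total after scaling. CKO_CRE replicate 2 stood apart from the rest of its group: on the principal component that separates CRE from PBS libraries the CKO_CRE libraries scored 10.1, 82.6 and 31.2, against 71.6 to 84.7 in WT_CRE. Rhoa was measured at 398 to 544 CPM in the CKO libraries and 471 to 531 CPM in the WT libraries (CKO against WT: log2 -0.07 ± 0.10, adjusted p = 0.728 under CRE, and -0.10 ± 0.10, adjusted p = 1 under PBS, edgeR). Whole lung holds mostly other cells than Cc10-expressing ones, so these levels do not check the genotype labels. By Y-linked and Xist counts, 2 of 3 CKO_CRE, 2 of 3 WT_CRE, 1 of 3 CKO_PBS and 0 of 3 WT_PBS libraries came from females. The groups with both sexes thus did not come from a single mouse. Markers of alveolar epithelium, endothelium and fibroblasts were abundant in every library, as the lung label has it. Of 10 cartilage markers, Acan, Matn1, Matn3, Cnmd, Snorc and Ucma were at or near 0, with at most 5 counts in any library. The other 4, Chad, Sox9, Comp and Hapln1, were expressed, and the list summed to 25.3 to 26.8 CPM in CKO_CRE, 28.7 to 36.1 CPM in WT_CRE, 16.2 to 24.1 CPM in CKO_PBS and 22.99 to 27.2 CPM in WT_PBS. With CRE, Sox9 and Comp rose in both genotypes and Chad fell in WT.

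Of the 44 collagen genes, 38 had enough counts to be tested. Col2a1, Col9a1, Col9a2, Col10a1, Col11a1 and Col19a1 were not, with at most 9 counts in any library and 2 to 21 counts over all 12. The first 5 of these are known chiefly as cartilage collagens. Summed over the family, collagen transcripts took 12706 ± 888 CPM in CKO_CRE, 15253 ± 1046 CPM in WT_CRE, 9196 ± 616 CPM in CKO_PBS and 8508 ± 393 CPM in WT_PBS (SD, n = 3 each). The lowest of the 6 CRE libraries, at 12135 CPM, lay above the highest of the 6 PBS libraries, at 9837 CPM. Fibril-forming genes made up 54.4% ± 3.42 of collagen counts in CKO_CRE and 63.0% ± 2.41 in WT_CRE, against 40.5% ± 2.86 in CKO_PBS and 38.0% ± 1.46 in WT_PBS. Type IV genes made up 26.2% ± 0.623 in CKO_CRE and 19.2% ± 2.11 in WT_CRE, against 39.7% ± 2.02 in CKO_PBS and 43.0% ± 2.06 in WT_PBS. For both classes the CRE and PBS means lay farther apart within a genotype than the genotypes did within a treatment. In whole lung, fewer cells of a type and less RNA per cell cannot be told apart.

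**Figure D1:**
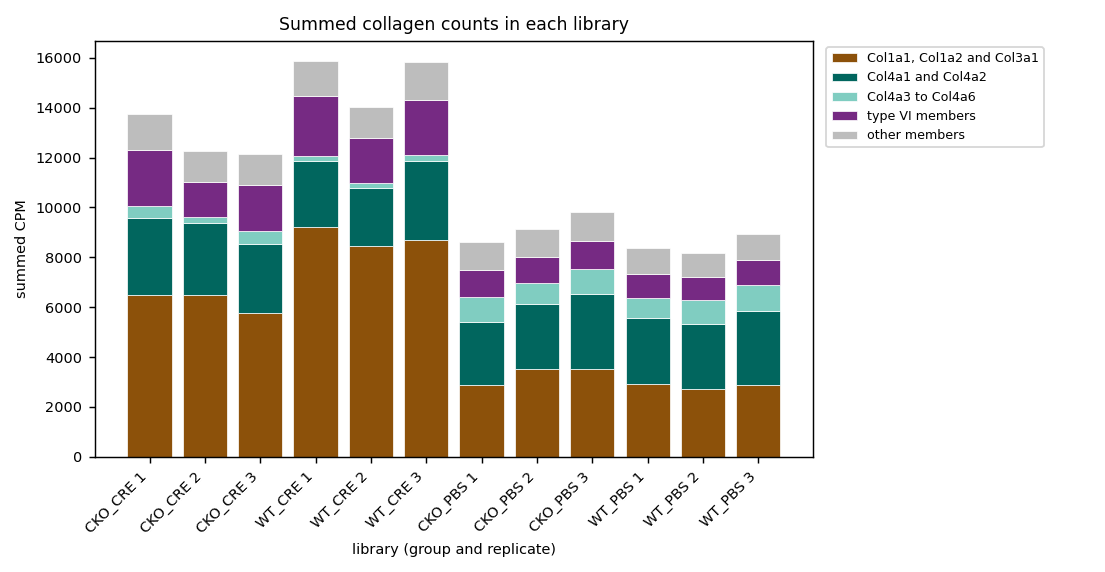
Summed CPM of collagen genes (vertical axis) in each of the 12 libraries, stacked by gene set. The 6 CRE libraries hold taller columns for Col1a1, Col1a2 and Col3a1, similar columns for Col4a1 and Col4a2, and shorter columns for Col4a3 to Col4a6 than the 6 PBS libraries.

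Per kilobase of the principal transcript, Col3a1 had the highest level of the family in all 4 groups, at 627 ± 45.3 CPM per kb in CKO_CRE, 854 ± 38.8 in WT_CRE, 298 ± 43.1 in CKO_PBS and 258 ± 19.4 in WT_PBS. In WT_PBS the next were Col4a1 (236 ± 19.1 CPM per kb), Col4a2 (178 ± 10.05), Col1a2 (152 ± 3.41), Col1a1 (102 ± 2.20), Col6a1 (101 ± 2.32) and Col6a2 (81.5 ± 4.27). Col1a1 and Col6a1 lay within each other's spread there. In WT_CRE the order was Col3a1, Col1a2 (395 ± 20.7), Col1a1 (324 ± 26.6) and then Col4a1 (249 ± 36.3). In CKO_CRE it was Col3a1, Col1a2 (273 ± 16.4), Col4a1 (269.9 ± 16.4) and Col1a1 (218 ± 14.03), with Col1a2 and Col4a1 within each other's spread.

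CRE against PBS asked which collagen genes follow the treatment, in each genotype. In CKO, 14 of the 38 tested collagen genes rose and 10 fell at an adjusted p below 0.05 (edgeR quasi-likelihood test, Benjamini-Hochberg over 17473 genes), or 36.8% and 26.3%, where 20.6% of all tested genes rose and 18.5% fell. In WT, 15 rose and 11 fell, or 39.5% and 28.9%, where 28.6% of all tested genes rose and 28.4% fell. Over both directions, 39.1% of all tested genes were called in CKO and 57.0% in WT, so a call in a collagen gene was no rarity. The median log2 fold change of the family was 0.12 in CKO and 0.34 in WT, against 0.00 and 0.01 over all genes. With the sex of the mouse as a covariate the counts were 15 higher and 8 lower in CKO, where 17.3% and 15.8% of all genes were called, and 15 higher and 9 lower in WT, where 22.9% and 22.5% were. The direction went by structural class. Fibril-forming and type VI genes rose where they passed, with Col27a1 as the exception, and the type IV genes that passed and all membrane-spanning genes that passed fell.

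**Figure D2:**
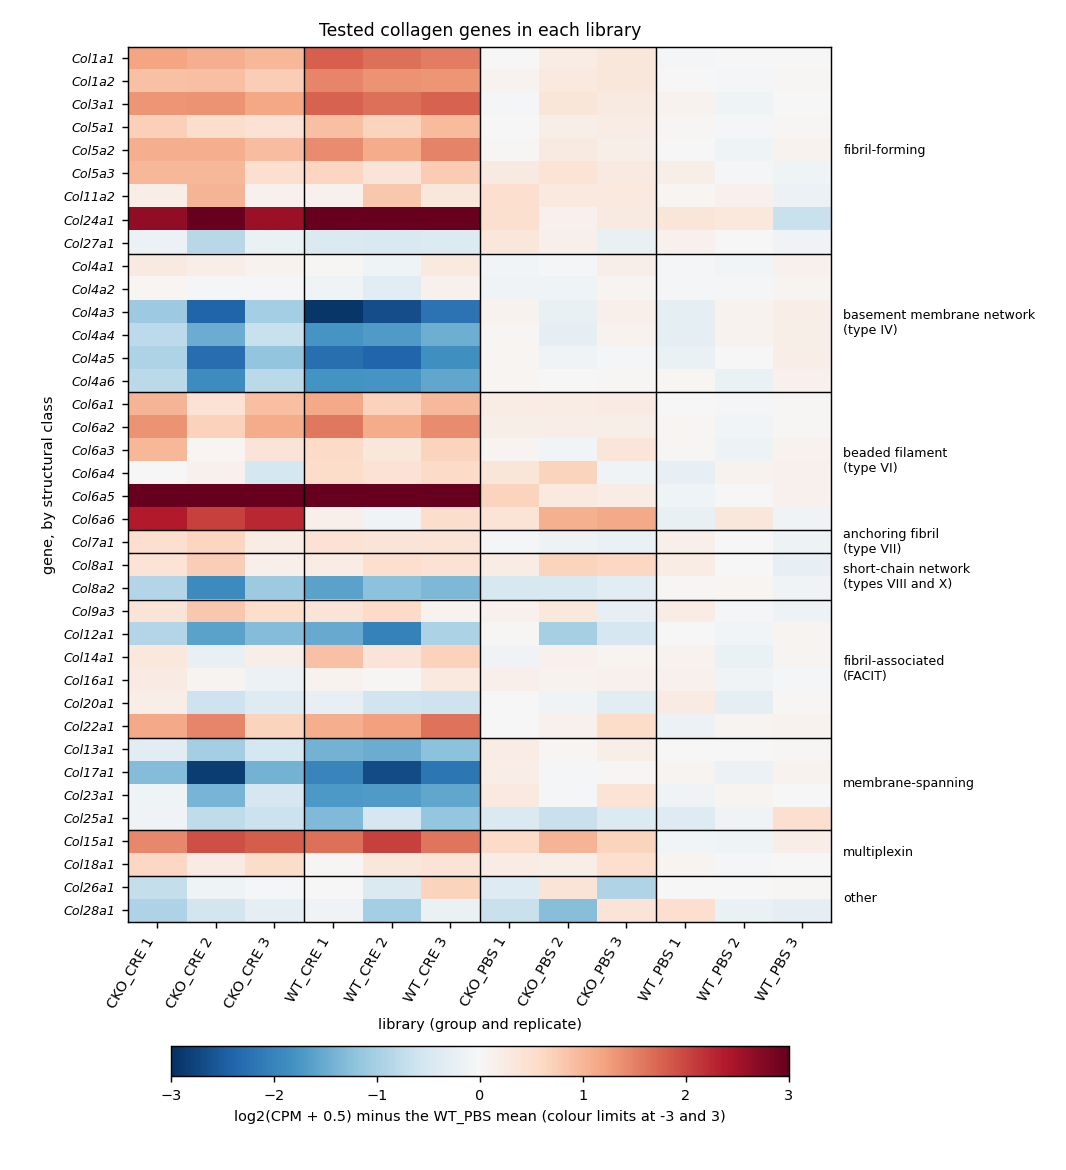
The 38 tested collagen genes (rows, by structural class) in the 12 libraries (columns); colour gives log2(CPM + 0.5) minus the mean of the WT_PBS libraries, red higher and blue lower. Col6a5 and the fibril-forming genes other than Col27a1 are red in the CRE libraries, Col27a1, Col4a3 to Col4a6 and the membrane-spanning genes are blue there, and CKO_CRE replicate 2 is bluer than the other CKO_CRE libraries in Col4a3 to Col4a6 and Col17a1.

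Among the fibril-forming genes, 7 of 9 tested rose and 1 fell in each genotype. Col1a1 (ENSMUSG00000001506, chromosome 11, 94936224 to 94953042, GRCm38), the main chain of type I collagen, was at 1377, 1286 and 1211 CPM in CKO_CRE, 2083, 1913 and 1768 CPM in WT_CRE, 606, 702 and 766 CPM in CKO_PBS, and 591, 615 and 611 CPM in WT_PBS. Every CRE library lay above every PBS library, and the CKO_CRE libraries lay below the WT_CRE libraries. The rise was log2 0.90 ± 0.11, adjusted p = 0.000218 in CKO and log2 1.67 ± 0.11, adjusted p = 2.57e-06 in WT. Col1a2 (chromosome 6, 4504814 to 4541544), the partner chain, was at 1492, 1525 and 1359 CPM in CKO_CRE, 2239.6, 2049.5 and 2045 CPM in WT_CRE, 865, 988 and 1030.2 CPM in CKO_PBS, and 811, 792 and 829 CPM in WT_PBS. It rose in CKO (log2 0.60 ± 0.10, adjusted p = 0.0011) and in WT (log2 1.38 ± 0.10, adjusted p = 4.07e-06). Col3a1 (chromosome 1, 45311538 to 45349706), which forms type III collagen on its own and mixes into type I fibrils, was at 3608, 3661 and 3199.9 CPM in CKO_CRE, 4875, 4501 and 4874 CPM in WT_CRE, 1389.8, 1849 and 1738 CPM in CKO_PBS, and 1534, 1321 and 1457 CPM in WT_PBS. It rose in CKO (log2 1.07 ± 0.13, adjusted p = 0.000179) and in WT (log2 1.72 ± 0.13, adjusted p = 4.5e-06), again without overlap between CRE and PBS libraries.

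Type V collagen starts fibrils and limits their width, and its 3 genes rose in both genotypes. Col5a2 was at 417, 421 and 372 CPM in CKO_CRE, 528, 427 and 549 CPM in WT_CRE, 203, 237 and 222 CPM in CKO_PBS, and 199.5, 179.9 and 211 CPM in WT_PBS, and rose by 0.87 ± 0.11 on the log2 scale in CKO and 1.35 ± 0.12 in WT. Col5a1 rose less, by 0.42 ± 0.10 in CKO and 0.84 ± 0.10 in WT. Col5a3, the least abundant of them, was at 19.6 ± 3.85 CPM in CKO_CRE, 16.5 ± 2.20 in WT_CRE, 13.4 ± 0.860 in CKO_PBS and 10.7 ± 1.19 in WT_PBS. Its rise was log2 0.54 ± 0.16, adjusted p = 0.0186 in CKO and log2 0.62 ± 0.16, adjusted p = 0.00619 in WT. The CKO call was lost without CKO_PBS replicate 1 or 3 or CKO_CRE replicate 1 or 2 (adjusted p = 0.0513 to 0.0653). It was also lost with limma-voom (0.116) and in a fit of the compared groups alone (0.0611). Col24a1, a minor fibrillar collagen described in developing bone and cornea, was at 6.97, 16.7 and 6.41 CPM in CKO_CRE, 26.9, 22.7 and 26.8 CPM in WT_CRE, 1.14, 0.785 and 0.913 CPM in CKO_PBS, and 1.01, 0.957 and 0.236 CPM in WT_PBS. Low in PBS lungs, it rose log2 3.40 ± 0.43, adjusted p = 0.000243 in CKO and log2 5.07 ± 0.45, adjusted p = 1.27e-05 in WT, and CKO_CRE replicate 2 lay nearer to WT_CRE than the other CKO_CRE libraries did. Col27a1, another minor fibrillar collagen, fell in CKO (log2 -0.49 ± 0.17, adjusted p = 0.0416) and in WT (log2 -0.45 ± 0.17, adjusted p = 0.0455). Both Col27a1 calls were lost when any of several single libraries was left out, with adjusted p up to 0.161 in CKO and 0.135 in WT. Both were also lost with sex as a covariate (adjusted p = 0.0698 in CKO and 0.144 in WT). The CKO call was lost with limma-voom (0.101) and in a fit of the compared groups alone (0.132) as well. Col11a2, a chain of type XI collagen, was not called (log2 0.15 ± 0.27 in CKO and 0.49 ± 0.27 in WT).

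**Figure D3:**
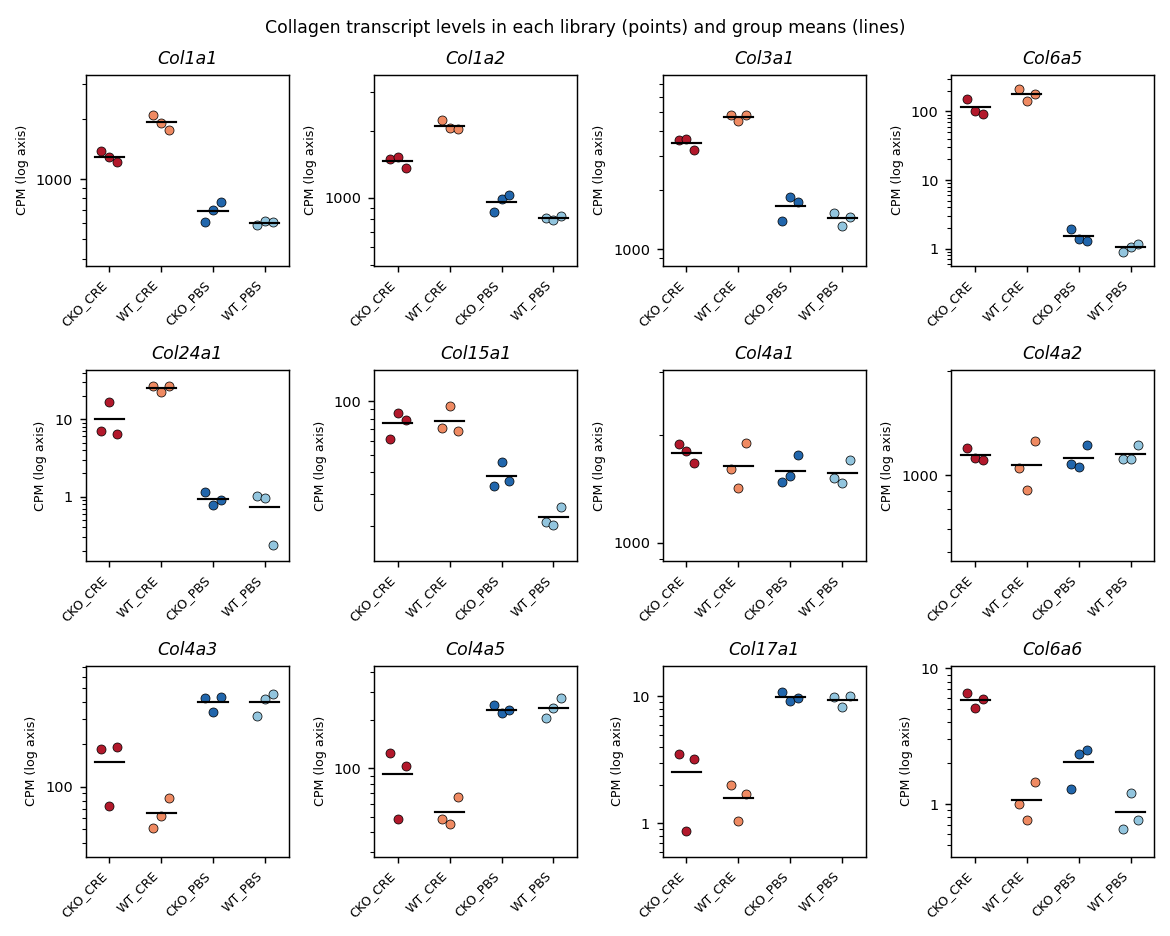
CPM of 12 collagen genes (log vertical axes) in each library (points) and the group means (lines), for CKO_CRE, WT_CRE, CKO_PBS and WT_PBS. Col1a1, Col1a2, Col3a1, Col6a5, Col24a1 and Col15a1 are higher in every CRE library than in any PBS library, Col4a3, Col4a5 and Col17a1 are lower, and Col4a1 and Col4a2 overlap between CRE and PBS libraries.

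Col3a1, the most abundant member, and Col6a5 and Col24a1, the members with the largest rises, are shown with the 250 bases before their RefSeq start (GRCm38.p6, RefSeq promoter table), 5′ to 3′ on the strand of the gene. Capitals mark the letters TATAAA or CCAAT or GGGCGG on either strand. The stretch of Col3a1 is chr1:45311288-45311537 on the plus strand, that of Col6a5 chr9:105960644-105960893 on the minus strand and that of Col24a1 chr3:145292222-145292471 on the plus strand.
Col3a1: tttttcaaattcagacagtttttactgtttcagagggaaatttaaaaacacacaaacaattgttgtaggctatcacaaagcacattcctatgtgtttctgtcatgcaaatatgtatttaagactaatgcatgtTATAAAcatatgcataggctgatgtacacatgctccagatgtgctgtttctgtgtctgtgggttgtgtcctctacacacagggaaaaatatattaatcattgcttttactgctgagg
Col6a5: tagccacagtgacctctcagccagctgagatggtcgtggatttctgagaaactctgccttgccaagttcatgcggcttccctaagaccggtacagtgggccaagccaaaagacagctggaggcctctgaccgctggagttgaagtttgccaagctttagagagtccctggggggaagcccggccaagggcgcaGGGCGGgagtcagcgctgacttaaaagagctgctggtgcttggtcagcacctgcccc
Col24a1: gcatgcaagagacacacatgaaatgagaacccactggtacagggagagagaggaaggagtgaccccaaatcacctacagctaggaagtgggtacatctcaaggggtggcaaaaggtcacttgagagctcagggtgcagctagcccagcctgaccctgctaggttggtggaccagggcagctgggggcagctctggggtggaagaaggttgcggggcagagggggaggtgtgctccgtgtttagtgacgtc
The Col3a1 stretch is poor in G and C (35.2%) and holds TATAAA once, those of Col6a5 (58.8%) and Col24a1 (58.0%) are richer, and Col6a5 holds GGGCGG once while Col24a1 holds none of the letters searched. Over the 300-base windows of all genes in the table, TATAAA stood in 13.6%, CCAAT in 37.4% and GGGCGG in 35.7% of 32851 windows, on either strand. For collagen genes these letters stood in 5, 13 and 23 of 38 windows, which cover 35 of the 44 genes. The letters are a description and not evidence of a binding site.

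Type IV collagen split into 2 genes that were not called and 4 that fell. Col4a1 (chromosome 8, 11198423 to 11312826), whose chains assemble with those of Col4a2 in nearly all basement membranes, was at 1885, 1801 and 1669.8 CPM in CKO_CRE, 1610.2, 1424 and 1900.1 CPM in WT_CRE, 1477, 1535 and 1762 CPM in CKO_PBS, and 1519, 1466 and 1706 CPM in WT_PBS. The groups overlapped. Its CRE difference was log2 0.17 ± 0.13, adjusted p = 0.319 in CKO (95% interval -0.11 to 0.44) and log2 0.07 ± 0.13, adjusted p = 0.645 in WT (-0.20 to 0.35). Col4a2 (chromosome 8, 11312805 to 11449287) was at 1199.9, 1118 and 1105 CPM in CKO_CRE, 1046, 903 and 1257 CPM in WT_CRE, 1073, 1056 and 1222 CPM in CKO_PBS, and 1111, 1112 and 1224 CPM in WT_PBS, with a CRE difference of log2 0.03 ± 0.12, adjusted p = 0.863 in CKO (-0.24 to 0.30) and log2 -0.10 ± 0.12, adjusted p = 0.491 in WT (-0.37 to 0.17).

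The 4 other type IV genes fell in both genotypes. Col4a3 (chromosome 1, 82586921 to 82722059), a chain of the alveolar and glomerular basement membrane, was at 184, 73.5 and 192 CPM in CKO_CRE, 51.4, 61.9 and 83.5 CPM in WT_CRE, 422, 337 and 434 CPM in CKO_PBS, and 319, 419 and 450.0 CPM in WT_PBS. CKO_CRE replicate 2 lay within the WT_CRE range and the other CKO_CRE libraries lay between the WT_CRE and PBS libraries. The fall was log2 -1.41 ± 0.30, adjusted p = 0.00414 in CKO and log2 -2.59 ± 0.32, adjusted p = 6.59e-05 in WT. Col4a4, its partner chain, was at 161, 99.3 and 176 CPM in CKO_CRE, 81.1, 86.0 and 101 CPM in WT_CRE, 288, 233 and 299 CPM in CKO_PBS, and 229, 302 and 316 CPM in WT_PBS, and fell in CKO (log2 -0.91 ± 0.20, adjusted p = 0.00429) and in WT (log2 -1.66 ± 0.20, adjusted p = 6.45e-05). Col4a5 (chromosome X, 141475385 to 141689234) was at 125, 48.2 and 103 CPM in CKO_CRE, 48.6, 45.1 and 65.9 CPM in WT_CRE, 246, 219.9 and 229.8 CPM in CKO_PBS, and 205, 236 and 273 CPM in WT_PBS. It fell in CKO (log2 -1.33 ± 0.27, adjusted p = 0.00305) and in WT (log2 -2.16 ± 0.28, adjusted p = 9.01e-05). Col4a6, which pairs with Col4a5 in other basement membranes, was at 20.5, 9.47 and 20.6 CPM in CKO_CRE, 10.03, 10.2 and 11.98 CPM in WT_CRE, 37.5, 35.9 and 37.0 CPM in CKO_PBS, and 37.8, 31.5 and 39.6 CPM in WT_PBS, and fell in CKO (log2 -1.13 ± 0.23, adjusted p = 0.00289) and in WT (log2 -1.75 ± 0.23, adjusted p = 0.000106). Type 1 alveolar cell markers fell too. So did the summed lung fibroblast, endothelial and Schwann cell markers, while the adventitial and activated fibroblast sums rose. Of 10 type 1 markers, 9 fell and 1 rose in each genotype, where 18.5% of all tested genes fell in CKO and 28.4% in WT. The type 1 markers summed to 3431 to 5082 CPM in CKO_CRE and 2841 to 3165 CPM in WT_CRE. In CKO_PBS they summed to 6853 to 7896 CPM and in WT_PBS to 6936 to 8017 CPM. Endothelial markers summed to 2632 to 4499.5 CPM in CKO_CRE and 2744 to 3105 CPM in WT_CRE. In CKO_PBS these were at 5432 to 6575 CPM and in WT_PBS at 6122 to 6287 CPM. The part of any of these cell types in the fall of the type IV genes was not tested.

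The 6 type IV genes lie in 3 pairs of genes transcribed away from each other. The starts of Col4a3 and Col4a4 have 71 bases between them on chromosome 1, those of Col4a5 and Col4a6 have 1308 bases between them on chromosome X, and the first exons of Col4a1 and Col4a2 overlap by 22 bases on chromosome 8. Reads in those 22 bases cannot be assigned without strand, a small part of either transcript. The 2 close starts are shown on the minus strand (GRCm38.p6), with up to 30 transcribed bases of each gene. For Col4a3 and Col4a4 (chr1:82586820-82586950) capitals mark the bases between the starts, and for Col4a2 and Col4a1 (chr8:11312797-11312834) the bases transcribed on both strands.
Col4a3 and Col4a4: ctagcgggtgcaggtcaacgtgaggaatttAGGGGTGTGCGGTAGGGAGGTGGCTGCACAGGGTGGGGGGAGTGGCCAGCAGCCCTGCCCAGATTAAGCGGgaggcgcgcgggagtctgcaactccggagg
Col4a2 and Col4a1: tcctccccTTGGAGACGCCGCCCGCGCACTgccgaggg
Both genes of the Col4a3 pair fell, and neither gene of the Col4a1 pair was called, in either genotype. Col4a3 shares 563 exon bases with C430014B12Rik, a transcript on the opposite strand that stayed at or below 1.16 CPM in every library.

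In type VI collagen, 4 of 6 genes rose in each genotype, though not the same 4. Col6a1 was at 848, 559 and 780.0 CPM in CKO_CRE, 921, 668 and 821 CPM in WT_CRE, 486, 486 and 493 CPM in CKO_PBS, and 417, 406 and 425 CPM in WT_PBS, and rose in CKO (log2 0.58 ± 0.15, adjusted p = 0.0107) and in WT (log2 0.95 ± 0.15, adjusted p = 0.00032). Col6a2 was at 822, 517 and 695 CPM in CKO_CRE, 964, 692 and 862 CPM in WT_CRE, 361, 369 and 361 CPM in CKO_PBS, and 335, 303 and 328 CPM in WT_PBS, with a rise of 0.90 ± 0.16 in CKO and 1.38 ± 0.16 in WT. Both lay lower in CKO_CRE replicate 2 than in the other CRE libraries. Col6a3, the large chain that joins them, was at 439, 229 and 285 CPM in CKO_CRE, 329, 278 and 351 CPM in WT_CRE, 231, 209 and 281 CPM in CKO_PBS, and 226, 197 and 238 CPM in WT_PBS. It was called in WT (log2 0.54 ± 0.20, adjusted p = 0.0402) and not in CKO (log2 0.40 ± 0.20, adjusted p = 0.135), and the WT call was lost without each of 6 libraries in turn (adjusted p up to 0.132). Without CKO_CRE replicate 2 it passed in CKO too (adjusted p = 0.0226).

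The largest rise of the family was that of Col6a5 (ENSMUSG00000091345, chromosome 9, 105856078 to 105960643), which encodes a chain that can stand in for that of Col6a3. It was at 151, 102 and 93.0 CPM in CKO_CRE, 215, 141 and 179 CPM in WT_CRE, 1.96, 1.39 and 1.30 CPM in CKO_PBS, and 0.909, 1.06 and 1.18 CPM in WT_PBS. PBS lungs held little of it and every CRE library held over 90 CPM. The rise was log2 6.22 ± 0.26, adjusted p = 1.32e-07 in CKO and log2 7.41 ± 0.28, adjusted p = 3.73e-08 in WT. Col6a6 (chromosome 9, 105687809 to 105828160), a neighbour that encodes another such chain, was at 6.55, 5.14 and 5.997 CPM in CKO_CRE, 1.01, 0.765 and 1.44 CPM in WT_CRE, 1.29, 2.36 and 2.50 CPM in CKO_PBS, and 0.657, 1.21 and 0.766 CPM in WT_PBS. It rose in CKO (log2 1.52 ± 0.31, adjusted p = 0.00309) and was not called in WT (log2 0.29 ± 0.36, adjusted p = 0.516). Col6a4, the other such chain, also next to Col6a5, was at 1.12 to 3.19 CPM and not called in either genotype (log2 -0.56 ± 0.30 in CKO and 0.62 ± 0.29 in WT). Col6a4, Col6a5 and Col6a6 lie 2.21 to 2.48 Mb from Rhoa.

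Members of the remaining classes moved less uniformly. Col7a1, which builds the anchoring fibrils under stratified epithelia, was at 19.9, 22.2 and 16.4 CPM in CKO_CRE, 19.1, 18.4 and 18.7 CPM in WT_CRE, 13.5, 12.5 and 12.2 CPM in CKO_PBS, and 15.6, 13.9 and 12.6 CPM in WT_PBS. It rose in CKO (log2 0.62 ± 0.13, adjusted p = 0.00331) and in WT (log2 0.41 ± 0.13, adjusted p = 0.0148), a call that in WT needed WT_PBS replicate 3 (without it, adjusted p = 0.0678). Of the short-chain collagens that line vessels and the cornea, Col8a2 was at 10.6, 5.03 and 9.17 CPM in CKO_CRE, 6.31, 8.31 and 7.59 CPM in WT_CRE, 14.2, 14.5 and 15.9 CPM in CKO_PBS, and 20.6, 21.003 and 18.8 CPM in WT_PBS. It fell in CKO (log2 -0.85 ± 0.22, adjusted p = 0.00959) and in WT (log2 -1.44 ± 0.22, adjusted p = 0.000223). Its CKO call was lost in a fit of the compared groups alone (adjusted p = 0.0573). Col8a1 was not called in CKO (log2 -0.06 ± 0.18) or WT (0.39 ± 0.18). Among the FACITs, Col22a1, known at tissue junctions such as that of muscle and tendon, was at 1.26, 1.69 and 0.764 CPM in CKO_CRE, 1.198, 1.37 and 1.98 CPM in WT_CRE, 0.310, 0.369 and 0.673 CPM in CKO_PBS, and 0.202, 0.353 and 0.354 CPM in WT_PBS. At this low level it rose in CKO (log2 1.44 ± 0.42, adjusted p = 0.0187) and in WT (log2 2.31 ± 0.45, adjusted p = 0.00104). The CKO call was lost without CKO_PBS replicate 1, CKO_PBS replicate 2 or CKO_CRE replicate 2 (adjusted p = 0.0686, 0.0621 and 0.0845). Limma-voom (0.103) and a fit of the compared groups alone (0.0597) lost that call too. Col14a1 rose in WT (log2 0.67 ± 0.15, adjusted p = 0.00306) and was not called in CKO (log2 0.06 ± 0.15, adjusted p = 0.761). Col12a1, which like Col14a1 coats type I fibrils, fell in CKO (log2 -0.81 ± 0.29, adjusted p = 0.0429) and in WT (log2 -1.45 ± 0.29, adjusted p = 0.00133). Its CKO call was lost without each of 8 libraries in turn (adjusted p up to 0.193). It was also lost with sex as a covariate (0.0878) and in a fit of the compared groups alone (0.0761). Col9a3 (log2 0.73 ± 0.35 in CKO and 0.55 ± 0.36 in WT), Col16a1 (-0.07 ± 0.11 and 0.15 ± 0.11) and Col20a1 (-0.10 ± 0.26 and -0.56 ± 0.26) were not called. Col26a1 and Col28a1, outside these classes, were at most 3.44 CPM and not called.

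The membrane-spanning collagens fell. Col17a1 (chromosome 19, 47646344 to 47692094), a hemidesmosome protein that ties epithelial cells to the basement membrane, was at 3.54, 0.876 and 3.23 CPM in CKO_CRE, 2.02, 1.04 and 1.71 CPM in WT_CRE, 10.9, 9.15 and 9.71 CPM in CKO_PBS, and 9.90, 8.31 and 10.1 CPM in WT_PBS. It fell in CKO (log2 -1.96 ± 0.37, adjusted p = 0.00207) and in WT (log2 -2.57 ± 0.39, adjusted p = 0.000222), and CKO_CRE replicate 2 held the lowest value of all 12 libraries. Col23a1 was at 114, 47.5 and 87.9 CPM in CKO_CRE, 37.7, 38.0 and 42.5 CPM in WT_CRE, 153, 121 and 166 CPM in CKO_PBS, and 117, 133 and 126 CPM in WT_PBS. The fall was log2 -0.82 ± 0.23, adjusted p = 0.0167 in CKO and log2 -1.67 ± 0.24, adjusted p = 0.000176 in WT. The CKO call was lost without CKO_PBS replicate 3 (adjusted p = 0.0639) and in a fit of the compared groups alone (0.0801). Col13a1 (chromosome 10, 61838236 to 61979108), a cell adhesion collagen known at the neuromuscular junction, was at 83.3, 50.5 and 71.3 CPM in CKO_CRE, 38.1, 36.8 and 44.1 CPM in WT_CRE, 121, 108 and 116 CPM in CKO_PBS, and 103, 102 and 105 CPM in WT_PBS. It fell in CKO (log2 -0.75 ± 0.14, adjusted p = 0.00234) and in WT (log2 -1.38 ± 0.15, adjusted p = 3.07e-05), with CKO_CRE between WT_CRE and the PBS libraries. Col25a1, a membrane collagen known from neurons, was called lower in WT (log2 -2.32 ± 0.78, adjusted p = 0.0236), not in CKO (log2 0.08 ± 0.73, adjusted p = 0.939), from levels of at most 1.24 CPM. Leaving out WT_PBS replicate 3, WT_CRE replicate 1 or WT_CRE replicate 3 took the WT call away (adjusted p = 0.0995, 0.0696 and 0.0835). So did sex as a covariate (0.104). Of the 2 multiplexins, basement membrane collagens that also carry sugar chains, Col15a1 was at 61.2, 85.7 and 79.0 CPM in CKO_CRE, 70.7, 93.7 and 68.3 CPM in WT_CRE, 33.4, 45.5 and 35.7 CPM in CKO_PBS, and 21.1, 20.2 and 25.5 CPM in WT_PBS, and rose in CKO (log2 0.98 ± 0.17, adjusted p = 0.00122) and in WT (log2 1.80 ± 0.17, adjusted p = 1.69e-05). Its PBS levels were higher in CKO than in WT without overlap, as were those of Col1a2 and Col6a1, and none of these was called. Col18a1, whose protein yields endostatin, was at 156, 120.1 and 149 CPM in CKO_CRE, 105, 129 and 136 CPM in WT_CRE, 118, 116 and 144 CPM in CKO_PBS, and 108, 97.6 and 100.5 CPM in WT_PBS, and was not called in CKO (log2 0.17 ± 0.13) or WT (0.28 ± 0.13).

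**Figure D4:**
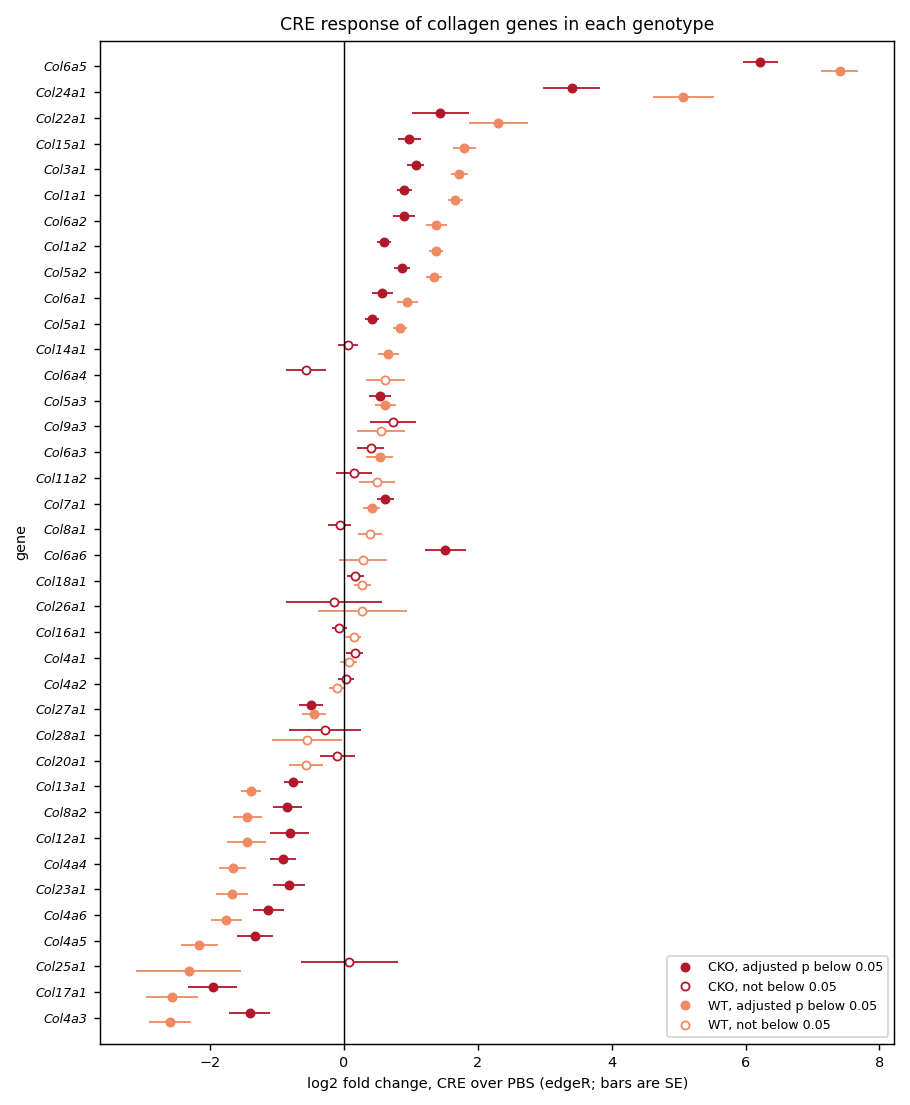
Log2 fold change of CRE over PBS (horizontal axis, bars are SE) for the 38 tested collagen genes in CKO (red) and WT (orange), ordered by the WT value; filled points have an adjusted p below 0.05. Of the genes past the threshold, those at the top rose and those at the bottom fell, and for most of these the CKO point lies nearer to 0 than the WT point.

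Of the 10 transcript pairs of collagen chains followed, most did not keep their proportions. Ratios of other genes were not taken. With CRE, 39.1% of all tested genes were called in CKO and 57.0% in WT, so shifted ratios need not be particular to collagen. The pairs are chains that assemble together, neighbour genes or alternative networks, and their ratios do not measure protein. Ratios were taken between the counts per kb of 10 pairs and compared between the 6 CRE and the 6 PBS libraries by an exact permutation test within genotype (two-sided, adjusted over the 10 pairs), whose smallest possible p is 0.005. Col1a1 to Col1a2 was 0.832, 0.761 and 0.803 in CKO_CRE and 0.839, 0.842 and 0.779 in WT_CRE, against 0.632, 0.641 and 0.670 in CKO_PBS and 0.657, 0.700 and 0.665 in WT_PBS (log2 difference 0.29, exact permutation adjusted p = 0.00714). Every CRE library thus held more Col1a1 transcript for each unit of Col1a2 transcript than any PBS library. Col5a1 to Col5a2 moved the other way (-0.48), as did Col6a1 to Col6a2 (-0.38), each at the same adjusted p in the exact permutation test. In type IV, Col4a1 to Col4a2 differed little (0.16), while Col4a3 to Col4a4 was 1.35, 0.875 and 1.29 in CKO_CRE and 0.750, 0.851 and 0.973 in WT_CRE, against 1.73, 1.71 and 1.71 in CKO_PBS and 1.65, 1.64 and 1.68 in WT_PBS (-0.77). Both passed (exact permutation adjusted p = 0.00714). Col4a3 to Col4a1, the alveolar against the general network, was 0.0316 to 0.0890 in CKO_CRE and 0.0247 to 0.0340 in WT_CRE, against 0.170 to 0.221 in CKO_PBS and 0.163 to 0.221 in WT_PBS (-2.18, exact permutation adjusted p = 0.00714). Col8a1 to Col8a2 was higher by 1.35 on the log2 scale at the same adjusted p, and stood at 5.31 in CKO_CRE replicate 2, against 1.93 to 2.95 in the other 5 CRE libraries. Col4a5 to Col4a6 (-0.32, adjusted p = 0.0187) and Col6a3 to Col6a1 (-0.30, adjusted p = 0.0333) also passed the exact permutation test, and Col3a1 to Col1a1 did not (0.12, adjusted p = 0.115). Within 1 genotype the smallest possible p of this test is 0.1.

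**Figure D5:**
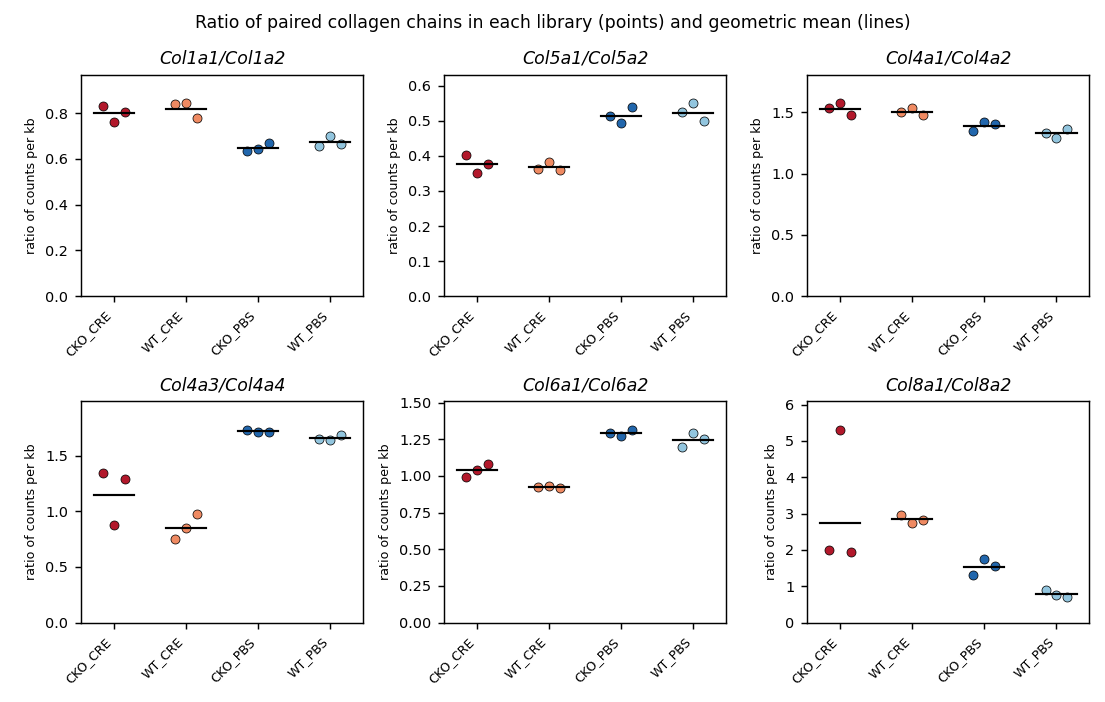
Ratio of counts per kb of 6 pairs of collagen chains (vertical axes from 0) in each library (points) and the geometric mean of each group (lines). Col1a1/Col1a2 and Col4a1/Col4a2 are higher and Col5a1/Col5a2, Col4a3/Col4a4 and Col6a1/Col6a2 lower in CRE libraries, and CKO_CRE replicate 2 is the highest library for Col8a1/Col8a2, at 5.31.

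CKO against WT under CRE asked whether the floxed Rhoa genotype goes with other collagen levels in treated lungs. Of the 38 tested members, 2 were higher (Col6a6 and Col13a1) and 2 lower (Col1a1 and Col1a2) in CKO_CRE than in WT_CRE, or 5.26% each way, where 0.549% of all tested genes were higher, 0.366% lower and 0.916% either. Col6a6 was 6.55, 5.14 and 5.997 CPM in CKO_CRE against 1.01, 0.765 and 1.44 CPM in WT_CRE (log2 2.45 ± 0.33, adjusted p = 0.00556). This call held in every alternative fit. Col6a6 lies 2.48 Mb from Rhoa, the floxed gene, and whether that position bears on its level was not tested. Col13a1 was 83.3, 50.5 and 71.3 CPM in CKO_CRE against 38.1, 36.8 and 44.1 CPM in WT_CRE (log2 0.78 ± 0.15, adjusted p = 0.032). Col1a1 was 1377, 1286 and 1211 CPM in CKO_CRE against 2083, 1913 and 1768 CPM in WT_CRE (log2 -0.57 ± 0.11, adjusted p = 0.0348), and Col1a2 was 1492, 1525 and 1359 CPM against 2239.6, 2049.5 and 2045 CPM (log2 -0.53 ± 0.10, adjusted p = 0.0322). None of these 4 genes overlapped between the groups, but neither did members that were not called, such as Col3a1, Col5a2, Col14a1, Col23a1 and Col24a1. The share of all genes without overlap was not counted. The calls of Col13a1, Col1a1 and Col1a2 were lost in a fit of the CKO_CRE and WT_CRE libraries alone (adjusted p = 0.278, 0.300 and 0.308) and when single libraries were left out, the highest adjusted p coming without WT_CRE replicate 1 (0.157, 0.173 and 0.167).

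In CKO_CRE against WT_CRE, 16 of the 38 tested members stood at an unadjusted p below 0.05 in edgeR, against 18.5% of all tested genes. Among those not called, the type IV genes that CRE lowered were higher in CKO_CRE: Col4a3 by 1.19 ± 0.30 (adjusted p = 0.0878), Col4a4 by 0.70 ± 0.20 (0.118), Col4a5 by 0.79 ± 0.27 (0.172) and Col4a6 by 0.65 ± 0.23 (0.187). Col23a1 (log2 1.07 ± 0.24, adjusted p = 0.0612) also was higher and Col24a1 (log2 -1.35 ± 0.35, adjusted p = 0.0951), Col3a1 (log2 -0.44 ± 0.13, adjusted p = 0.118) and Col6a5 (log2 -0.63 ± 0.19, adjusted p = 0.129) were lower, none past the threshold. CKO_CRE replicate 2 bears on these values. Without it, 9 members were higher and 6 lower, where 15.8% and 12.7% of 17931 genes were called, and Col4a3, Col4a4, Col4a5, Col4a6 and Col23a1 passed (adjusted p = 0.000276, 0.00110, 0.000598, 0.000276 and 7.78e-05). With DESeq2 5 members were higher and 5 lower, where 3.07% of all genes were higher and 1.72% lower. With limma-voom, which weights libraries by quality, 11 were higher and 11 lower, where 23.0% and 20.8% of all genes were. This comparison uses the same WT_CRE libraries as the CRE response of WT.

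CKO against WT under PBS asked whether the genotypes differ without CRE. None of the 38 members was called in edgeR, where 0.0401% of all genes were higher, 0.0687% lower and 0.109% either. An unadjusted p below 0.05 was met by 5 of the 38, against 5.32% of all genes. Col15a1 was 33.4, 45.5 and 35.7 CPM in CKO_PBS against 21.1, 20.2 and 25.5 CPM in WT_PBS (log2 0.78 ± 0.17, adjusted p = 0.174). It was called in 4 alternatives, among them DESeq2 (adjusted p = 0.00791) and limma-voom (0.0340), each with 1 member higher and 0 lower. Of all genes, DESeq2 called 0.315% higher and 0.338% lower, and limma-voom 0.309% higher and 0.527% lower. Col6a6 was 1.29, 2.36 and 2.50 CPM in CKO_PBS against 0.657, 1.21 and 0.766 CPM in WT_PBS (log2 1.22 ± 0.34, adjusted p = 0.421). The groups did not overlap for either gene, nor for other members such as Col1a2, Col6a1, Col6a2 and Col8a2. The share of all genes without overlap was not counted. Col6a6 lies 2.48 Mb from Rhoa on chromosome 9. Of the other members near Rhoa there, Col7a1 at 0.62 Mb (log2 -0.14 ± 0.13), Col6a4 (0.41 ± 0.29) and Col6a5 (0.56 ± 0.34) were not called either.

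The interaction, which is the CKO response to CRE minus that of WT, was called for no member in edgeR. Of all genes, 0.0343% were higher, 0.0114% lower and 0.0458% either. An unadjusted p below 0.05 was met by 17 of the 38 tested members, against 10.3% of all genes. The 6 smallest p-values were those of Col1a2 (log2 -0.78 ± 0.14, adjusted p = 0.144), Col1a1 (log2 -0.76 ± 0.16, adjusted p = 0.176), Col3a1 (log2 -0.65 ± 0.18, adjusted p = 0.339), Col15a1 (log2 -0.82 ± 0.24, adjusted p = 0.365), Col13a1 (log2 0.63 ± 0.21, adjusted p = 0.399) and Col6a5 (log2 -1.19 ± 0.39, adjusted p = 0.399). For the 5 of these that CRE raised the CKO rise was the smaller, and for Col13a1 the CKO fall was the smaller, without passing the threshold. Without CKO_CRE replicate 2 the interaction was called for 8 members higher and 6 lower, where 8.72% of 17931 genes were higher and 6.11% lower. Col1a2 (adjusted p = 0.00275), Col1a1 (0.00780), Col4a3 (0.00409) and Col13a1 (0.00263) were among them. DESeq2 called 0 higher and 3 lower (Col1a1, Col1a2 and Col3a1), where 0.458% of all genes were higher and 0.24% lower, and limma-voom 9 higher and 12 lower, where 14.5% and 10.6% were. Of the genes that passed in 1 genotype only under CRE, Col14a1 and Col25a1 (in WT) and Col6a6 (in CKO) were called for the interaction by limma-voom (adjusted p = 0.0170, 0.0198 and 0.0336) and not by edgeR or DESeq2, and Col6a3 by none of the 3.

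Genes that build, bind or cut collagen were followed in 6 lists. Of all tested genes, 20.6% rose and 18.5% fell in CKO, and 28.6% rose and 28.4% fell in WT. A few calls in a list were thus no rarity. Of 18 enzymes and chaperones that hydroxylate, glycosylate and fold collagen chains, 8 rose and 4 fell in CKO and 9 rose and 5 fell in WT, with a median log2 fold change of 0.26 and 0.32. Fkbp10, a chaperone of lysyl hydroxylation, rose by 0.53 ± 0.13 in CKO (adjusted p = 0.00756) and 1.02 ± 0.13 in WT (8.05e-05), and P3h1, a prolyl 3-hydroxylase, by 0.47 ± 0.10 (0.00352) and 0.80 ± 0.10 (7.26e-05). The galactosyltransferase gene Colgalt2 fell, with -1.09 ± 0.22 in CKO (0.00305) and -1.83 ± 0.23 in WT (7e-05), as did the lysyl hydroxylase Plod2 (-0.91 ± 0.16 and -1.04 ± 0.16). Of 12 tested genes of procollagen export and end trimming, 1 rose and 3 fell in CKO and 4 rose and 2 fell in WT. Creb3l1, a regulator of collagen secretion, rose by 1.26 ± 0.15 in CKO (0.000173) and 1.54 ± 0.15 in WT (1.76e-05), and Pcolce2, an enhancer of procollagen trimming, fell (-1.65 ± 0.33 and -2.77 ± 0.35). Of 6 crosslinking enzymes, 2 rose in CKO and 4 in WT and none fell. Lox, which crosslinks fibrils, was among both (0.56 ± 0.12 in CKO, adjusted p = 0.0033, and 0.96 ± 0.12 in WT, 6.1e-05).

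Of 13 proteoglycans and adaptor proteins of fibrils, 1 rose and 4 fell in each genotype. The riser was Fn1, fibronectin, by 1.51 ± 0.15 in CKO (7.44e-05) and 2.09 ± 0.15 in WT (4.07e-06). Decorin (Dcn), which coats type I fibrils, fell (-0.59 ± 0.11 in CKO and -0.99 ± 0.11 in WT), as did Ogn (-1.38 ± 0.27 and -1.78 ± 0.28) and Prelp (-0.69 ± 0.18 and -0.999 ± 0.18). Of 10 collagen receptors, 1 rose and 5 fell in CKO and 1 rose and 7 fell in WT. The riser in both was Lair1, an inhibitory receptor of leukocytes (1.46 ± 0.19 and 1.504 ± 0.20), and the collagen-binding integrin chain Itga1 (-0.87 ± 0.19 and -1.37 ± 0.20) and the receptor kinase Ddr2 (-0.74 ± 0.18 and -0.97 ± 0.18) fell. Of 9 tested collagen-cleaving proteases, 3 rose and 1 fell in CKO and 6 rose and 1 fell in WT. Mmp13 (collagenase 3) was at 5.65, 235 and 11.2 CPM in CKO_CRE, 112, 136 and 111 CPM in WT_CRE, 1.65, 1.06 and 0.625 CPM in CKO_PBS, and 0.859, 1.46 and 0.943 CPM in WT_PBS. It rose by 6.24 ± 1.29 in CKO (0.00331) and 6.77 ± 1.31 in WT (0.00106), and most of the CKO_CRE level was that of replicate 2. Ctsk (cathepsin K) rose by 2.42 ± 0.29 and 2.57 ± 0.29, and Mmp14 by 1.56 ± 0.21 and 1.95 ± 0.21. Mmp15 fell (-0.37 ± 0.12 and -0.82 ± 0.12). Between CKO_CRE and WT_CRE edgeR called no gene of the 6 lists. There 1 to 4 genes a list had an unadjusted p below 0.05, where 18.5% of all tested genes had one. DESeq2 called at most 1 gene a list in either direction there, and limma-voom 0 to 4 higher and 1 to 5 lower. Of all tested genes, DESeq2 called 3.07% higher and 1.72% lower, and limma-voom 23.0% and 20.8%.

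Markers of matrix-producing cells moved in both directions under CRE, and not always with the collagen genes. Of all tested genes, 20.6% rose and 18.5% fell in CKO, and 28.6% rose and 28.4% fell in WT. Of 10 markers of resident lung fibroblasts such as Tcf21 and Npnt, 8 fell and none rose in each genotype, while fibril-forming collagens rose. Their summed level was 1670.2 to 3964 CPM in CKO_CRE, 1680.1 to 1915 CPM in WT_CRE, 5964 to 7000.4 CPM in CKO_PBS and 6107 to 6400.3 CPM in WT_PBS. Of 7 tested markers of activated fibroblasts, 5 rose in CKO and 6 in WT, and their sum was 1228, 3721 and 1254 CPM in CKO_CRE, 3189.9 to 3263 CPM in WT_CRE, 781 to 829 CPM in CKO_PBS and 727 to 795 CPM in WT_PBS. That list holds Spp1 and Timp1, which macrophages also express, and CKO_CRE replicate 2 was its highest library. Of 10 adventitial fibroblast markers, 5 rose and 1 fell in CKO and 5 rose and 2 fell in WT. Endothelial markers fell, 9 of 12 in CKO and 10 of 12 in WT, while Col4a1 and Col4a2, which endothelium also makes, were not called. Of 7 pericyte markers, 1 rose and 3 fell in CKO and 4 fell in WT, and of 7 smooth muscle markers 1 rose in CKO and 2 rose and 1 fell in WT. The part of any of these cell types in the collagen values was not tested.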

How the data were processed

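Poly(A) RNA of whole mouse lung was sequenced, with 12 libraries in 4 groups of 3. The authors deposited whole-number counts per Ensembl gene. Reads had been handled with fastp and STAR on mm10, per the submitters' processing notes, which name no version. Which program counted them, on which annotation and with what strand rule is not given in the sources used here. Without strand, reads of a gene and an antisense partner cannot be told apart: 10 collagen genes share exon bases with a gene on the opposite strand and 3 with one on the same strand, mostly in short stretches. GENCODE M21 (GRCm38) supplied symbols and coordinates for 54495 of 54532 identifiers.

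The deposited counts went into edgeR 4.0.16 under R 4.3.3 (TMM factors 0.964 to 1.03, filterByExpr, one mean a group, all 12 libraries), and 17473 genes were tested by quasi-likelihood, with a call at an adjusted p under 0.05. Variation between replicate libraries beyond counting noise came to a coefficient of 17.4%. Log2 fold changes are given ± SE and levels ± SD (n = 3). Levels per kb use the longest principal coding transcript. Chain ratios used log2 of counts plus 0.5. Near-identical copies (98% identity over 200 bases or more) were searched with blastn 2.17.0; the 2 hits, Col4a3 to C430014B12Rik and Col9a3 to Tcfl5, were such antisense overlaps.

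The collagen genes, the gene lists and the tests were chosen with earlier results of these data known, so the counts are descriptions. Values for each library are given for 12 named genes, their partner chains and for called genes with at least 1 CPM and no overlap, up to 6 rising and 6 falling a comparison, up to 3 each way in each of the 6 pathway lists, and the 6 smallest p-values of the interaction. Other members are named for completeness. The labels do not say that replicate numbers pair the libraries, and the main fit did not pair them (correlations of same-numbered libraries -0.03 to 0.18). The edgeR, DESeq2 and limma-voom fits were tried on simulated counts with 200 genes changed in WT_CRE alone, and the ratio test on a simulated shift. Far more genes were called in these data, so the trial does not cover changes as wide as these. Alternatives were DESeq2 size factors, DESeq2 1.42.0, limma-voom (limma 3.58.1) with quality weights, no count filter, a replicate block, the compared groups alone, sex as a covariate, and each library left out in turn.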

Additional observations from a re-analysis of the deposited data

How the results depend on the processing

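No direction of a collagen gene that was called turned in any alternative, and the CRE calls were the steadier ones: 18 of 24 in CKO and 22 of 26 in WT held in every alternative, against 1 of 4 between CKO_CRE and WT_CRE. In CKO, the fit of the compared groups alone called 6 members lower with CRE, against 10, and 10.1% of all genes, against 18.5%. Between CKO_CRE and WT_CRE, the count of members higher was 5 with DESeq2, 11 with limma-voom, 6 without a count filter and 1 with the compared groups alone, against 2, and leaving out single libraries gave 1 to 9. The count lower was 5 with DESeq2, 11 with limma-voom, 5 without a count filter and 0 with the compared groups alone, against 2, and 0 to 6 with single libraries left out. Under PBS, DESeq2, limma-voom, no count filter and the compared groups alone each called 1 member higher, Col15a1, against 0. Between CKO_CRE and WT_CRE the shares of all genes called were, higher and lower, 3.07% and 1.72% with DESeq2, 23.0% and 20.8% with limma-voom, 1.51% and 0.628% without a count filter and 0.115% and 0.0608% with the compared groups alone. Under PBS the shares higher were 0.315%, 0.309%, 0.164% and 0.181% in the same order. For the interaction, limma-voom called 9 higher and 12 lower, DESeq2 3 lower, and leaving out single libraries 0 to 8 higher and 0 to 6 lower, against 0 and 0. The shares of all genes were 14.5% and 10.6% with limma-voom and 0.24% lower with DESeq2. The highest of these ranges came without CKO_CRE replicate 2. The cause of these shifts was not tested. The Col6a3 to Col6a1 ratio lost its call without CKO_PBS replicate 3, WT_CRE replicate 1 or CKO_CRE replicate 3 (exact permutation adjusted p = 0.0778, 0.0556 and 0.0778), with log2 differences of -0.24 to -0.37 over all libraries left out in turn. The other ratios kept their side of the threshold in every alternative, and the summed collagen levels moved by less than 1 SD.

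The replicate number is shared across groups, and the labels do not say what it stands for. Of 12 libraries, 8 correlated best with one of their own number, though these correlations were at most 0.18. Whether the number pairs the libraries was thus not settled. With the replicate number as a block, 1 member (Col6a5) was lower between CKO_CRE and WT_CRE, against 2, with 0.395% of all genes called lower. Col1a1 (adjusted p = 0.0571) and Col1a2 (0.0536) missed the threshold. Other counts moved by at most 1. Levels under about 1 CPM, as of Col25a1 and Col26a1, rest on few counts.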
